A study of Saccharomyces cerevisiae with 24 samples.

Results

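This is an account of 7 genes of zinc uptake, storage and regulation in budding yeast, ZRT1, ZRT2, ZPS1, ZRT3, ZRC1, ZRG17 and ZAP1, among the 7121 gene rows of a table of TPM values (a gene's share of the transcripts in a library, corrected for gene length) from 24 RNA-seq libraries. The members were picked by gene name, and ZRT1 was included because it had already been seen to be lower in mud1D cells in log phase. The comparison that chose it, and the others of ZRT1 that use the mud1D log phase libraries, are therefore given as a description with no test. That choice also used the WT log phase libraries. Tests of ZRT1 that hold those libraries are printed below but are not independent of the choice. All 7 names were found in the table, and all 7 passed the filter on low values that left 6449 genes to test.

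Saccharomyces cerevisiae of the BY background was grown in SD medium with histidine, leucine, uracil, lysine and 2% glucose, and harvested in log phase or after 48 h, the state that the labels call starvation. The starvation groups were hsh49::Q24P (strain JPY2863), nam8D (JPY28H5), mud1D (JPY28A8) and WT (JPY10H3), and the same 4 strains made up the log phase groups. Each of the 8 groups held 3 libraries of polyadenylated RNA. The U1 snRNP of the spliceosome contains both Nam8 and Mud1, and Hsh49 sits in the SF3b complex of the U2 snRNP, so the mutants compared are a point mutant and deletions of splicing factors. Each genotype is 1 strain, and the zinc content of the medium was not given in the sources used here.

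Yeast takes up zinc through plasma membrane transporters and keeps what it does not need in the vacuole. Zap1 is a transcription factor that senses zinc. When zinc is scarce it binds zinc-responsive elements in promoters, raises the transcription of uptake genes and of its own gene, and mobilises the vacuolar store. Stored zinc lets cells grow for some time after the supply ends, and many abundant enzymes of fermentation need the metal.

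The 7 genes lie on 7 different chromosomes, each is a single uninterrupted coding sequence in the RefSeq R64 annotation, and no annotated gene overlaps any of them. ZRT1 (YGL255W) is at chrVII:20978-22108 on the plus strand, ZPS1 (YOL154W) at chrXV:34658-35407 on the plus strand, and ZRT3 (YKL175W) at chrXI:118793-120304 on the plus strand. ZRT2 (YLR130C) is at chrXII:402794-404062, ZRC1 (YMR243C) at chrXIII:754838-756166, ZRG17 (YNR039C) at chrXIV:697614-699431 and ZAP1 (YJL056C) at chrX:330431-333073, all on the minus strand.

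The 500 bases before each start codon were searched on both strands for the zinc-responsive element, ACCTTNAAGGT, which is its own reverse complement, because that element is where Zap1 binds. The exact element was found before 2 of the 7 genes, ZRT1 and ZRG17, and in 9 of 6000 yeast promoters of the same length (0.15%). With 1 mismatch allowed, a match was found before 7 of the 7, and in 118 of the 6000 (1.97%). With 2 mismatches allowed it was found in 1159 of the 6000 (19.3%). The element is known from promoters of zinc genes such as these, so its presence here is not independent of the choice of members. The sequences are shown so that the sites can be compared base by base. Each is written 5′ to 3′ on the strand of its gene in the R64 genome, with the match in capitals.
ZRT1, exact, 199 bases before the start codon, chrVII:20744-20814: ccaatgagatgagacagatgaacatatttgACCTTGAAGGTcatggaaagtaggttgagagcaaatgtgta
ZRT1, 1 mismatch, 314 bases before, chrVII:20629-20699: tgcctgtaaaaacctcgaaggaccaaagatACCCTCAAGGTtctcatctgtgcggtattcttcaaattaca
ZRT2, 1 mismatch, 306 bases before, chrXII:404333-404403: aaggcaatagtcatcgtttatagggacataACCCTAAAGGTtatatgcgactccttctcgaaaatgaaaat
ZRT2, 1 mismatch, 257 bases before, chrXII:404284-404354: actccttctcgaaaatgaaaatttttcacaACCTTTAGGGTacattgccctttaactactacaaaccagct
ZPS1, 1 mismatch, 324 bases before, chrXV:34299-34369: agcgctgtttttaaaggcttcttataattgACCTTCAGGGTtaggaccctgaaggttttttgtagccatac
ZPS1, 1 mismatch, 309 bases before, chrXV:34314-34384: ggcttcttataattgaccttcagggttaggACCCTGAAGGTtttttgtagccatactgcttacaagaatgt
ZRT3, 1 mismatch, 150 bases before, chrXI:118608-118678: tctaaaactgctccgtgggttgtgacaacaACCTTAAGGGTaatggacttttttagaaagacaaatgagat
ZRC1, 1 mismatch, 169 bases before, chrXIII:756300-756370: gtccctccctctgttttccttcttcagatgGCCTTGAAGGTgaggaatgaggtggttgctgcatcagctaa
ZRG17, exact, 79 bases before, chrXIV:699496-699524: aaatgatgaACCTTGAAGGTatttttgtt
ZAP1, 1 mismatch, 139 bases before, chrX:333177-333247: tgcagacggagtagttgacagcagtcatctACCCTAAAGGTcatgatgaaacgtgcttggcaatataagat

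With up to 1 mismatch, ZRT1, ZRT2 and ZPS1 each had a pair of matches within the window, and the other 4 genes had 1 each. With up to 2 mismatches, ZRT1 and ZRC1 had 4 each, and the other members gained none. The stress element AGGGG, searched on both strands, was found before none of the 7 genes and in 2044 of the 6000 promoters (34.1%). A match is a run of letters and not a measured binding site.

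**Figure D1:**
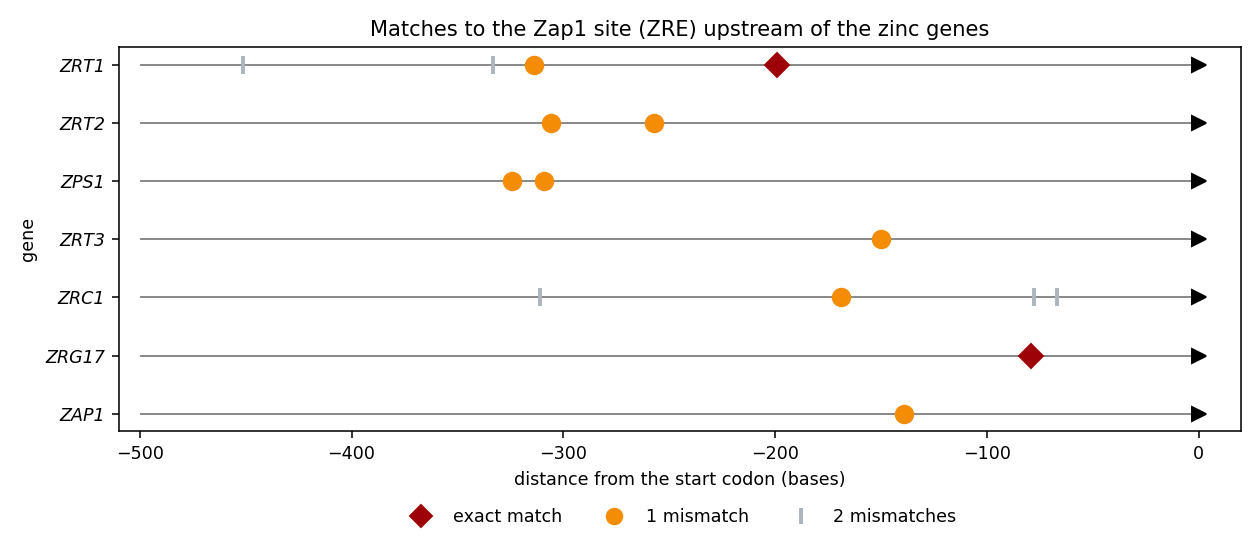
Positions of matches to the zinc-responsive element in the 500 bases before each start codon, 1 row per gene; the x axis is the distance from the start codon in bases, and marker shapes give the number of mismatches. Exact matches are present for ZRT1 at 199 bases and ZRG17 at 79 bases only.

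The libraries were checked before use. The deposited TPM of each library added up to between 999639 and 999881 and keep no record of read number, so the depth behind a value is unknown. NAM8 averaged 0.12 TPM in starved nam8D cells and 45.3 TPM in starved WT, and MUD1 averaged 3.58 TPM in starved mud1D cells and 69.2 TPM in starved WT. HSH49 carries a point mutation that TPM cannot show. LEU2 separated WT from the mutants: in starvation it averaged 0.93 TPM in hsh49::Q24P, 4.35 TPM in nam8D, 4.58 TPM in mud1D and 4482 TPM in WT, and URA3 was at 0 in the starved libraries of all 3 mutants and averaged 8.46 TPM in starved WT. The genotype and these marker differences cannot be told apart in any comparison of a mutant with WT. In log phase the hsh49::Q24P libraries held 465, 118 and 63.0 TPM of LEU2, more than their starved counterparts. LEU2 averaged 14.5 ± 14.5 TPM in log phase nam8D (SD, n = 3), 3.37 TPM in mud1D and 5191 TPM in WT. URA3 averaged 0.19 TPM in log phase hsh49::Q24P, 0 in nam8D and mud1D, and 4.96 TPM in WT.

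A TPM is a share of the sequenced RNA, so a change in a gene's own RNA and a change in the rest cannot be told apart. Differences below are on the log2(TPM + 1) scale with their standard error (SE), from limma fitted to all 6449 genes, with p adjusted over them by Benjamini-Hochberg. A gene is said to have risen or fallen where the adjusted p was under 0.05, and is said to be called where the difference was also at least 1. Between starvation and log phase the median gene differed by 0.39 in hsh49::Q24P, by 0.43 in nam8D, by 0.36 in mud1D and by 0.47 in WT. Scaled to 92 spike-in RNAs instead, whose summed TPM ranged from 13124 to 22815 in starvation and 8033 to 12571 in log phase, those medians became -0.63 for hsh49::Q24P, -0.54 for nam8D, -0.42 for mud1D and 0.20 for WT. With that scaling the genes called in the starvation response numbered 524 higher and 2367 lower in hsh49::Q24P (1836 and 910 in TPM), 501 and 2153 in nam8D (1770 and 662), 677 and 2023 in mud1D (1820 and 959), and 1107 and 817 in WT (1691 and 581).

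In starvation the uptake genes among the members, ZRT1 and ZRT2, and the secreted protein ZPS1 stood lower in all 3 mutants than in WT. The vacuolar transporters ZRT3 and ZRC1 stood slightly higher. ZRT1 and ZPS1 were the members called lower in every mutant, 2 of 7 each time, where 7.41% of all tested genes were called lower for hsh49::Q24P, 7.86% for nam8D and 8.87% for mud1D. No member was called higher, where 3.94%, 4.39% and 4.57% of tested genes were in hsh49::Q24P, nam8D and mud1D. In log phase 0 of 7 members rose or fell in hsh49::Q24P or nam8D against WT. Few genes did at all: of those tested, 0.202% rose and 0.264% fell in hsh49::Q24P, and 0.155% and 0.14% in nam8D. For ZRT1 the WT log phase libraries also entered its choice. The 7 genes together summed to between 709 and 920 TPM in the starved mutant libraries and between 1472 and 1719 TPM in starved WT.

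**Figure D2:**
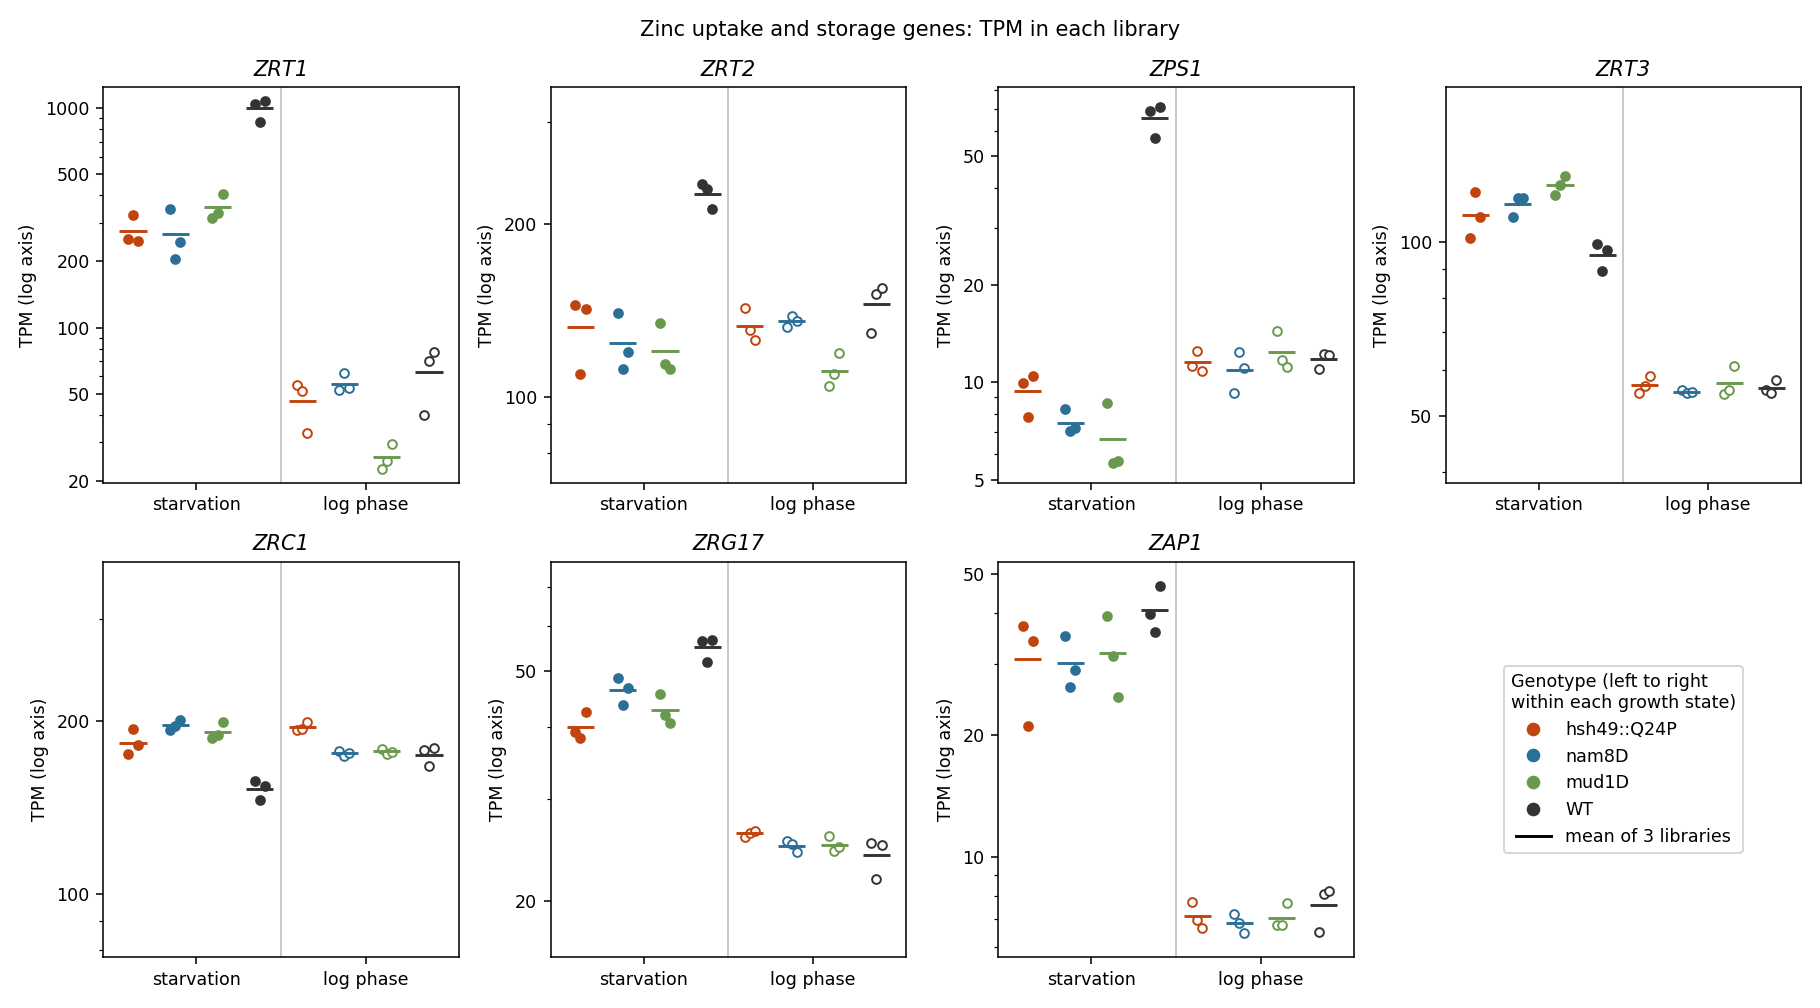
TPM of each zinc gene in each of the 24 libraries on a log axis, 1 panel per gene, with starvation left of log phase and the genotypes in the order hsh49::Q24P, nam8D, mud1D and WT; points are libraries and bars are means of 3. For ZRT1, ZRT2, ZPS1 and ZRG17 the starved WT libraries lie above all others.

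ZRT1 encodes the high-affinity zinc transporter of the plasma membrane. In starvation it was at 254, 325 and 249 TPM in hsh49::Q24P, 348, 205 and 244 TPM in nam8D, 316, 333 and 408 TPM in mud1D, and 1044, 863 and 1082 TPM in WT. The lowest starved WT library was above the highest starved mutant library, while the mutants overlapped each other. In log phase it was at 54.8, 51.4 and 33.2 TPM in hsh49::Q24P, 51.8, 62.0 and 52.9 TPM in nam8D, 22.6, 24.7 and 29.4 TPM in mud1D, and 40.0, 70.0 and 77.1 TPM in WT. Here the mud1D libraries were the lowest, below every library of the other groups, and the other 3 genotypes overlapped.

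Against WT in starvation, ZRT1 fell by 1.85 for hsh49::Q24P (SE 0.22, adjusted p = 8.12e-07), fell by 1.93 for nam8D (SE 0.22, adjusted p = 5.12e-07) and fell by 1.499 for mud1D (SE 0.22, adjusted p = 9.48e-06). All 3 stayed called under each alternative tried. In starvation against log phase ZRT1 was higher by 2.57 in hsh49::Q24P (adjusted p = 1.56e-09), by 2.21 in nam8D (adjusted p = 1.76e-08) and by 4.02 in WT, or 16.3-fold (adjusted p = 2.18e-12). Relative to the WT response this was -1.46 for hsh49::Q24P and -1.82 for nam8D, and both passed the test of the interaction (adjusted p = 0.000985 for hsh49::Q24P and 0.000129 for nam8D). The WT response and both interactions hold the WT log phase libraries, which also entered the choice of ZRT1. Their tests are therefore not independent of that choice. In mud1D, whose log phase libraries chose the gene, the starvation level was 3.73 above the log phase level, -0.29 relative to the WT response, given with no test.

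The log phase difference in ZRT1 that led to its choice was -1.21 in mud1D against WT (SE 0.22). In that comparison 0.202% of tested genes were called lower. No call of ZRT1 is read there because the comparison chose it. Leaving out 1 library at a time moved the difference between -1.496 and -1.03, and scaling to the spike-ins gave -0.86. In log phase ZRT1 was also 0.81 higher in hsh49::Q24P than in mud1D and 1.09 higher in nam8D than in mud1D, and 0.202% of tested genes were called higher in the first of these comparisons and 0.155% in the second. Without the 2 hsh49::Q24P libraries with most LEU2, leaving the lone library at 33.2 TPM, the difference from mud1D was 0.37. Among the other members, ZRT2 was 0.38 lower in mud1D than in WT in log phase, and the remaining 5 differed by between -0.09 and 0.06.

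ZRT2 encodes the low-affinity zinc transporter, which Zap1 both activates and, under severe deficiency, holds down. Starved libraries held 145, 110 and 142 TPM in hsh49::Q24P, 140, 112 and 120 TPM in nam8D, 135, 114 and 112 TPM in mud1D, and 235, 229 and 212 TPM in WT. Log phase libraries held 143, 131 and 126 TPM in hsh49::Q24P, 132, 138 and 136 TPM in nam8D, 105, 110 and 119 TPM in mud1D, and 129, 151 and 155 TPM in WT. Only the starved WT libraries stood apart, and the other 7 groups overlapped their neighbours in the order of means. Against WT in starvation ZRT2 fell by 0.77 in hsh49::Q24P (adjusted p = 3.26e-06), 0.86 in nam8D (adjusted p = 9.09e-07) and 0.90 in mud1D (adjusted p = 4.01e-07), with an SE of 0.10 in each. In the mutants the starvation difference was -0.02 in hsh49::Q24P (adjusted p = 0.874), -0.13 in nam8D (adjusted p = 0.253) and 0.11 in mud1D (adjusted p = 0.328). In WT ZRT2 rose by 0.63 in starvation (adjusted p = 1.42e-05), where the median gene was at 0.47, and the difference was 0.16 after centring each library on its median (adjusted p = 0.136) and 0.33 with spike-in scaling (adjusted p = 0.174).

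The ratio of the TPM of ZRT1 to that of ZRT2 put the same pattern within each library. It ran from 1.75 to 2.97 in starved hsh49::Q24P, 1.83 to 2.48 in nam8D, 2.35 to 3.64 in mud1D and 3.76 to 5.11 in WT. The log phase ratio ran from 0.26 to 0.39 in hsh49::Q24P, 0.39 to 0.45 in nam8D, 0.22 to 0.25 in mud1D and 0.31 to 0.50 in WT. Thus ZRT2 was the more abundant of the pair in every log phase library and ZRT1 in every starved one.

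ZPS1 encodes a protein of the cell surface that resembles a zinc metalloprotease and is induced when zinc is low. Its level in starvation was 9.97, 7.83 and 10.5 TPM in hsh49::Q24P, 8.27, 7.05 and 7.21 TPM in nam8D, 8.66, 5.63 and 5.73 TPM in mud1D, and 69.2, 56.8 and 71.1 TPM in WT. Log phase levels were between 9.24 and 12.5 TPM in hsh49::Q24P and nam8D, between 11.2 and 14.4 TPM in mud1D, and between 11.02 and 12.2 TPM in WT. ZPS1 thus had 1 high group, starved WT, and each mutant had a lower mean in starvation than in log phase. Against starved WT it fell by 2.68 in hsh49::Q24P (SE 0.14, adjusted p = 1.27e-11), fell by 2.97 in nam8D (SE 0.14, adjusted p = 3.25e-12) and fell by 3.14 in mud1D (SE 0.14, adjusted p = 1.15e-12), which is the largest difference among the 7 genes in each mutant.

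In starvation against log phase, ZPS1 was at -0.27 in hsh49::Q24P (adjusted p = 0.0883), fell by 0.48 in nam8D (adjusted p = 0.00477), fell by 0.82 in mud1D (adjusted p = 2.69e-05) and rose by 2.37 in WT (adjusted p = 8.22e-12). The response differed from that of WT by -2.65 in hsh49::Q24P (adjusted p = 8.68e-09), -2.86 in nam8D (adjusted p = 2.77e-09) and -3.20 in mud1D (adjusted p = 5.84e-10). It was the member with the lowest response relative to WT in each mutant. Over the members tested for such a difference, 0 were higher than WT and 4 lower in hsh49::Q24P, where 18% of tested genes were higher and 28% lower. In nam8D 2 were higher and 4 lower (22.2% and 25.2% of tested genes), and in mud1D 2 were higher and 3 lower (19.7% and 30% of tested genes). Members called lower by this difference were 2 in hsh49::Q24P (7.88% of tested genes), 2 in nam8D (8.76%) and 1 in mud1D (9.57%). The lower counts for hsh49::Q24P and nam8D include ZRT1, whose WT log phase values entered its choice, so they are not independent of that choice.

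ZRT3 encodes the transporter that releases zinc from the vacuole. Starved libraries held 102, 122 and 110.5 TPM in hsh49::Q24P, 111, 119 and 119 TPM in nam8D, 121, 126 and 130.3 TPM in mud1D, and 99.2, 89.2 and 97.1 TPM in WT. All 12 log phase libraries were between 54.6 and 61.0 TPM, so every starved library exceeded every log phase library. ZRT3 rose in starvation by 0.96 in hsh49::Q24P (adjusted p = 2.32e-11), 1.06 in nam8D (adjusted p = 5.67e-12), 1.12 in mud1D (adjusted p = 1.88e-12) and 0.75 in WT (adjusted p = 1.46e-09). With spike-in scaling the difference was -0.15 for hsh49::Q24P, -0.01 for nam8D and 0.25 for mud1D, where it no longer passed (adjusted p = 0.27). Unlike ZRT1 and ZRT2, ZRT3 was higher in the starved mutants than in WT, by 0.22 in hsh49::Q24P (adjusted p = 0.00559), 0.29 in nam8D (adjusted p = 0.000723) and 0.40 in mud1D (adjusted p = 2.5e-05), although spike-in scaling turned the first to -0.20 and the second to -0.13 and lowered the third to 0.18.

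ZRC1 encodes the transporter that loads zinc into the vacuole and so works opposite to ZRT3. Its level in starvation was 175, 193 and 181 TPM in hsh49::Q24P, 193, 196 and 201 TPM in nam8D, 186, 189 and 199 TPM in mud1D, and 157, 146 and 154 TPM in WT. Log phase libraries held 193 to 199 TPM in hsh49::Q24P, 174 to 177 TPM in nam8D, 175 to 179 TPM in mud1D and 167 to 180 TPM in WT. Starved WT was the lowest group and overlapped none of the others. Between starvation and log phase ZRC1 differed by -0.09 for hsh49::Q24P (adjusted p = 0.0885), rose by 0.16 for nam8D (adjusted p = 0.0049) and by 0.11 for mud1D (adjusted p = 0.0381), and fell by 0.20 for WT (adjusted p = 0.000996). The rises in nam8D and mud1D were below 0 after median centring, at -0.26 and -0.23, and the one in mud1D did not pass in 5 of the 6 fits that left out 1 library. Against starved WT it was 0.26 higher in hsh49::Q24P (adjusted p = 0.000102), 0.36 in nam8D (adjusted p = 2.56e-06) and 0.33 in mud1D (adjusted p = 8.01e-06), and with spike-in scaling these were -0.16, -0.06 and 0.11 in the same order of strains.

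The quotient of ZRT3 over ZRC1 was higher in every starved library than in any log phase library. It was 0.61 ± 0.03 in hsh49::Q24P, 0.59 ± 0.02 in nam8D, 0.66 ± 0.01 in mud1D and 0.62 ± 0.01 in WT in starvation (SD, n = 3 each). The log phase quotient was 0.29 ± 0.01 in hsh49::Q24P, 0.31 ± 0.002 in nam8D, 0.32 ± 0.02 in mud1D and 0.32 ± 0.01 in WT (SD, n = 3 each).

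ZRG17 encodes a zinc transporter of the cation diffusion facilitator family that works with Msc2 to bring zinc into the endoplasmic reticulum. In starvation it was at 39.2, 38.4 and 42.5 TPM in hsh49::Q24P, 48.7, 43.6 and 46.8 TPM in nam8D, 45.6, 42.1 and 40.7 TPM in mud1D, and 56.5, 51.9 and 56.6 TPM in WT. Its 12 log phase libraries were between 21.8 and 26.5 TPM. Starved WT was the highest group with no overlap, and the starved mutants came next, above every log phase library. Against starved WT it fell by 0.45 in hsh49::Q24P (adjusted p = 8.63e-06), 0.24 in nam8D (adjusted p = 0.00369) and 0.36 in mud1D (adjusted p = 0.000106). The starvation rise was 0.59 in hsh49::Q24P, 0.87 in nam8D, 0.75 in mud1D and 1.17 in WT, each past the test, with adjusted p = 6.2e-08 the highest. With spike-in scaling the difference was below 0 in the mutants, at -0.49 for hsh49::Q24P, -0.19 for nam8D and -0.11 for mud1D.

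ZAP1 encodes the regulator itself, and had low levels in log phase, between 6.49 and 8.24 TPM over the 12 libraries. In starvation it was at 37.1, 21.0 and 34.1 TPM in hsh49::Q24P, 35.0, 26.3 and 28.9 TPM in nam8D, 39.3, 31.3 and 24.9 TPM in mud1D, and 39.8, 35.9 and 46.6 TPM in WT. The starved groups overlapped. ZAP1 rose in all 4 strains, by 1.93 in hsh49::Q24P (adjusted p = 2.68e-09), 1.97 in nam8D (adjusted p = 2.1e-09), 2.00 in mud1D (adjusted p = 1.43e-09) and 2.28 in WT (adjusted p = 2.86e-10), and no interaction with the genotype passed the test. Against starved WT it was 0.43 lower in hsh49::Q24P (adjusted p = 0.0407), 0.43 lower in nam8D (adjusted p = 0.041) and 0.36 lower in mud1D (adjusted p = 0.0754). The first of these was -0.18 and did not pass without the hsh49::Q24P library at 21.0 TPM, and it did not pass under 6 other alternatives. The second did not pass under 5, which included leaving out either of 2 nam8D or 2 WT libraries.

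**Figure D3:**
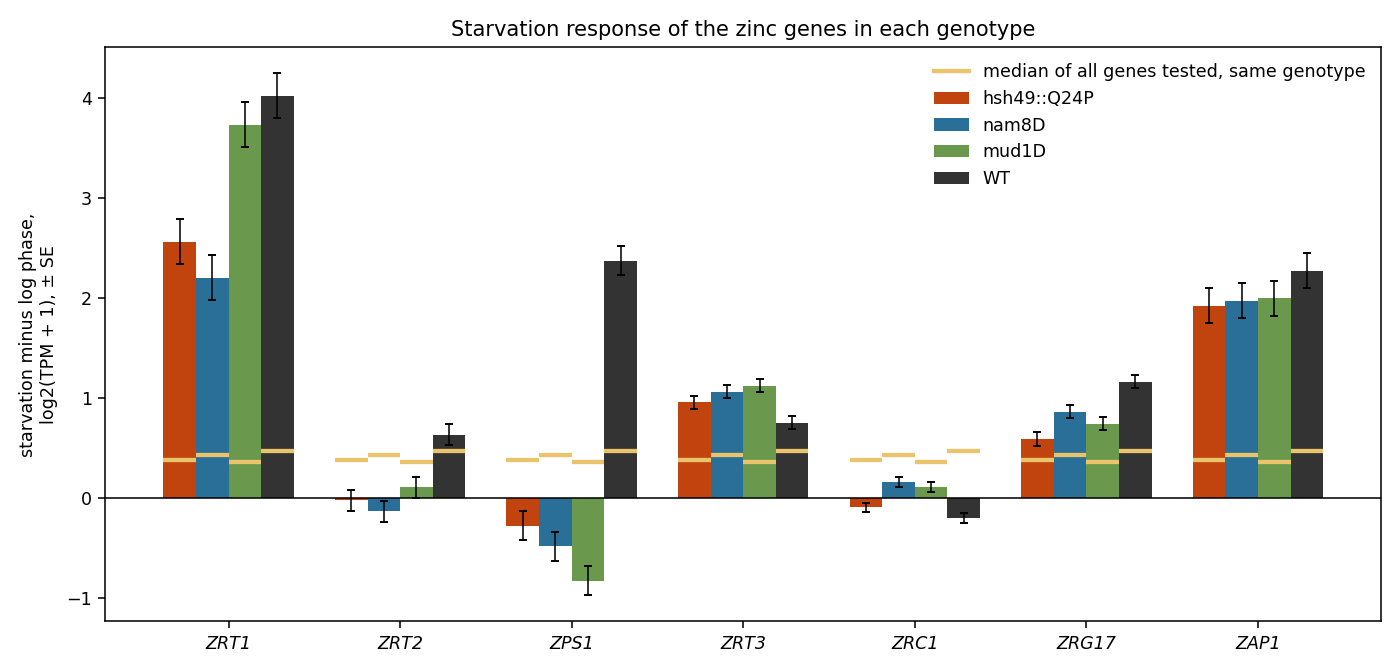
Difference between starvation and log phase for each zinc gene on the log2(TPM + 1) scale, with bars for hsh49::Q24P, nam8D, mud1D and WT, error bars of 1 SE (n = 3 libraries in each state), and the median of all tested genes of the same genotype as a line. ZPS1 is above 0 in WT only, and ZAP1 lies between 1.93 and 2.28 in all 4 strains.

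Counted together, members called higher in starvation were 2 of 7 in hsh49::Q24P, where 28.5% of tested genes were called higher, 3 of 7 in nam8D (27.4% of tested genes), 2 of the 6 tested in mud1D (28.2%) and 4 of 7 in WT (26.2%). ZAP1 was called in all strains, ZRT1 in the 3 strains where it was tested, ZRT3 in nam8D and mud1D, and ZPS1 and ZRG17 in WT. No member was called lower, where 14.1% of tested genes were in hsh49::Q24P, 10.3% in nam8D, 14.9% in mud1D and 9.01% in WT. At any size, 4 members rose and 0 fell in hsh49::Q24P (53.3% and 28.2% of tested genes), 5 rose and 1 fell in nam8D (55.4% and 24.7%), 4 of the 6 tested rose and 1 fell in mud1D (52.2% and 28.7%), and 6 rose and 1 fell in WT (58.7% and 22.1%). The median member responded by 0.59, 0.87, 0.75 and 1.17 in hsh49::Q24P, nam8D, mud1D and WT, beside median genes of 0.39, 0.43, 0.36 and 0.47. The median for mud1D includes ZRT1, whose log phase values chose it. The WT counts and median include ZRT1 too, and its WT log phase values entered the choice.

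Against WT in starvation 2 members rose and 5 fell in hsh49::Q24P, where 25.1% of tested genes rose and 35.1% fell. In nam8D 2 rose and 5 fell (27.8% and 32.2% of tested genes), and in mud1D 2 rose and 4 fell (27.6% and 37% of tested genes). The members that rose were ZRT3 and ZRC1 each time. The median member was -0.45 for hsh49::Q24P, -0.43 for nam8D and -0.36 for mud1D, beside a median gene of -0.09, -0.03 and -0.10. These 3 comparisons share the same 3 starved WT libraries, so a library that was high or low there moves all of them. Genes called in this comparison were 254 higher and 478 lower in hsh49::Q24P, 283 and 507 in nam8D and 295 and 572 in mud1D in TPM, and with spike-in scaling 99 and 1110, 132 and 1063, and 161 and 839 in the same order. Centred on library medians they were 345 and 379, 315 and 451, and 376 and 453.

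**Figure D4:**
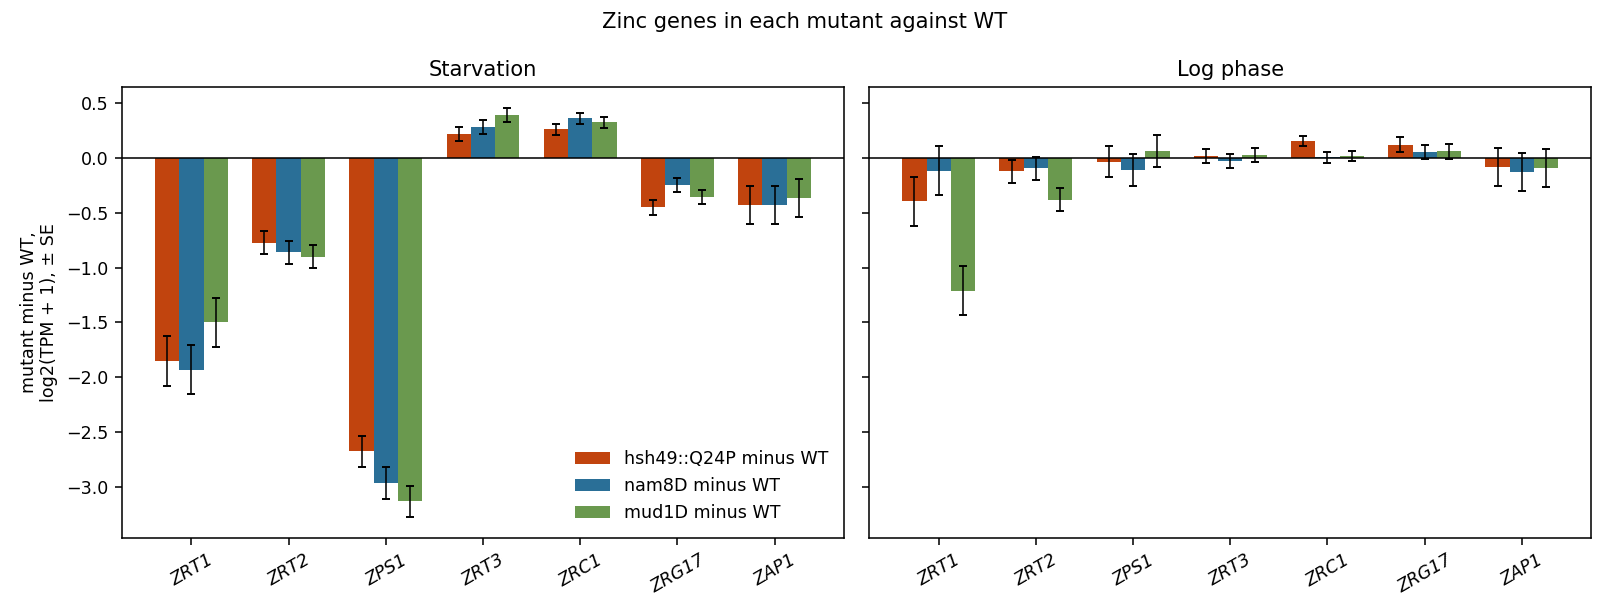
Difference between each mutant and WT for each zinc gene on the log2(TPM + 1) scale, in starvation (left panel) and log phase (right panel), with error bars of 1 SE (n = 3 libraries in each group). In starvation the ZRT1, ZRT2 and ZPS1 bars are below 0 in all 3 mutants, and in log phase the ZRT1 bar of mud1D is at -1.21.

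Few members differed between the starved mutants. Of the 21 comparisons of a member between 2 mutants in starvation, 1 passed, ZRG17 in hsh49::Q24P against nam8D, at -0.21 (SE 0.07, adjusted p = 0.0274), and it did not pass under 8 of the alternatives. None was called. Of all tested genes, 8.47% were higher and 16% lower in hsh49::Q24P than in nam8D, 0.403% and 0.434% in hsh49::Q24P than in mud1D, and 15.1% and 8.54% in nam8D than in mud1D. At the size needed for a call these shares were 1.01% and 0.186%, 0.217% and 0.0465%, and 0.388% and 0.729%. For ZPS1 the largest such difference was 0.46 between hsh49::Q24P and mud1D (SE 0.14, adjusted p = 0.179), and for ZRT1 it was -0.43 between nam8D and mud1D (SE 0.22, adjusted p = 0.176). A p that misses the threshold with 3 libraries a group does not show that the mutants were alike.

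In log phase the members of hsh49::Q24P and nam8D stood near WT. ZRT1 was at -0.40 in hsh49::Q24P (SE 0.22, adjusted p = 0.998) and -0.12 in nam8D (SE 0.22, adjusted p = 0.896). The WT libraries in these comparisons also entered the choice of ZRT1. Calls were rare in log phase over all genes as well, with 0.062% of tested genes called higher in hsh49::Q24P and in nam8D, and 0.0465% called lower in hsh49::Q24P and 0.062% in nam8D. At any size 0.202% rose and 0.264% fell in hsh49::Q24P, and 0.155% rose and 0.14% fell in nam8D. Among the other members in these 2 mutants the largest log phase difference was 0.16 for ZRC1 in hsh49::Q24P (SE 0.05, adjusted p = 0.327).

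Further lists of zinc genes gave the surroundings of the 7 genes. Of 9 further genes of zinc transport and homeostasis, 2 were called higher and 2 lower in starved hsh49::Q24P, 3 and 2 in nam8D, 3 and 2 in mud1D, and 3 and 1 in WT. Of all tested genes, 28.5% were called higher and 14.1% lower in hsh49::Q24P, 27.4% and 10.3% in nam8D, 28.2% and 14.9% in mud1D, and 26.2% and 9.01% in WT. COT1, a vacuolar zinc and cobalt transporter related to ZRC1, rose by 2.06 in WT (SE 0.17). It averaged 413 ± 111 TPM in starved hsh49::Q24P, 347 ± 48 TPM in nam8D, 369 ± 78 TPM in mud1D and 193 ± 10 TPM in WT (SD, n = 3 each). YKE4, a zinc transporter of the endoplasmic reticulum, rose by 1.89 in WT and ZRG8 by 1.72. FET4, a low-affinity importer of iron and zinc, fell by 1.499 in starved WT, and in starvation it was higher than in WT by 1.04 for hsh49::Q24P, 1.41 for nam8D and 1.13 for mud1D (SE 0.13).

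The same list had 2 genes called lower in each starved mutant against WT, and 2 called higher for hsh49::Q24P, 1 for nam8D and 1 for mud1D. The shares over all tested genes were 7.41% to 8.87% called lower and 3.94% to 4.57% called higher in these comparisons. IZH4, a membrane protein linked to zinc homeostasis, averaged 1.73 ± 0.23 TPM in starved hsh49::Q24P, 1.69 ± 0.22 TPM in nam8D, 1.66 ± 0.22 TPM in mud1D and 10.9 ± 0.7 TPM in WT (SD, n = 3 each). Its differences from WT were -2.13 for hsh49::Q24P, -2.15 for nam8D and -2.17 for mud1D, with adjusted p = 3.68e-10 the highest. Its relative IZH1 fell by 1.29 for hsh49::Q24P, fell by 1.154 for nam8D and fell by 1.21 for mud1D (SE 0.11). MSC2, the partner of ZRG17, rose by 0.89 in starved WT and differed from WT by between -0.04 and 0.03 in the starved mutants.

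Of 17 further genes that Zap1 is known to activate, 16 passed the filter. In starvation 1 was called higher in each genotype, and 5 were called lower in hsh49::Q24P, 4 in nam8D, 6 in mud1D and 1 in WT, beside the shares of all tested genes given above for the same responses, 26.2% to 28.5% higher and 9.01% to 14.9% lower. Their median response was -0.63 in hsh49::Q24P, -0.45 in nam8D, -0.41 in mud1D and -0.05 in WT, below that of the median gene in each genotype. Against starved WT, 2 were called higher and 2 lower in hsh49::Q24P, 2 and 1 in nam8D, and 2 and 4 in mud1D (3.94% to 4.57% of tested genes called higher and 7.41% to 8.87% lower), with medians of -0.41, -0.47 and -0.49 for the 3 mutants.

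The 2 genes of that list called higher in each starved mutant against WT were PIS1 and ATG41. PIS1, the phosphatidylinositol synthase, averaged 294 ± 11 TPM in starved hsh49::Q24P, 288 ± 12 TPM in nam8D, 311 ± 10 TPM in mud1D and 81.1 ± 1.4 TPM in WT (SD, n = 3 each). In log phase it averaged 294 TPM in hsh49::Q24P, 300.4 TPM in nam8D, 280.3 TPM in mud1D and 268 TPM in WT, so starved WT was the group set apart. It was 1.84 higher for hsh49::Q24P than for starved WT, 1.81 for nam8D and 1.92 for mud1D (SE 0.05), the reverse of the direction of ZRT1 and ZPS1. ATG41, a gene of autophagy, was higher than in starved WT by 1.95 for hsh49::Q24P, 2.54 for nam8D and 1.79 for mud1D (SE 0.22). More genes of the list fell than rose. At any size 4 rose and 8 fell in hsh49::Q24P (25.1% and 35.1% of tested genes), 5 and 10 in nam8D (27.8% and 32.2%), and 5 and 10 in mud1D (27.6% and 37%). DPP1 averaged 49.4 TPM in starved hsh49::Q24P, 39.5 TPM in nam8D, 41.9 TPM in mud1D and 106 TPM in WT. MNT2 averaged 16.9, 16.5, 12.2 and 30.6 TPM in the same order. The exact element was found before MCD4, RTC4 and TEX1 of these 17 genes, and 5 of the 17 had a match with up to 1 mismatch.

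Among 7 zinc enzymes, 3 were called higher and 3 lower in starved hsh49::Q24P, 2 and 2 in nam8D, 3 and 3 in mud1D, and 2 and 3 in WT, beside the same shares of all tested genes (26.2% to 28.5% higher and 9.01% to 14.9% lower). ADH2, the alcohol dehydrogenase that glucose represses, rose by 8.30 in WT and SFA1, a formaldehyde dehydrogenase, by 2.03, while ADH1, the main fermentative alcohol dehydrogenase, fell by 2.38 and MET6, the methionine synthase, fell by 2.05. ADH2 averaged 116 ± 68 TPM in starved hsh49::Q24P, 16.8 ± 6.2 TPM in nam8D, 87.1 ± 69.9 TPM in mud1D and 941 ± 156 TPM in WT (SD, n = 3 each). FBA1, the aldolase of glycolysis, was 1.36 lower in hsh49::Q24P and 1.41 lower in mud1D than in starved WT. ADH1 and ADH3, the pair that Zap1 is known to hold down when zinc is scarce, moved apart in starvation, with ADH1 called lower in all 4 genotypes and ADH3 called higher in hsh49::Q24P and mud1D. No gene of these lists was called in any mutant against WT in log phase, where calls were rare over all genes. Of 6449 tested genes, 4 were called higher and 3 lower in hsh49::Q24P, 4 and 4 in nam8D, and 7 and 13 in mud1D.

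**Figure D5:**
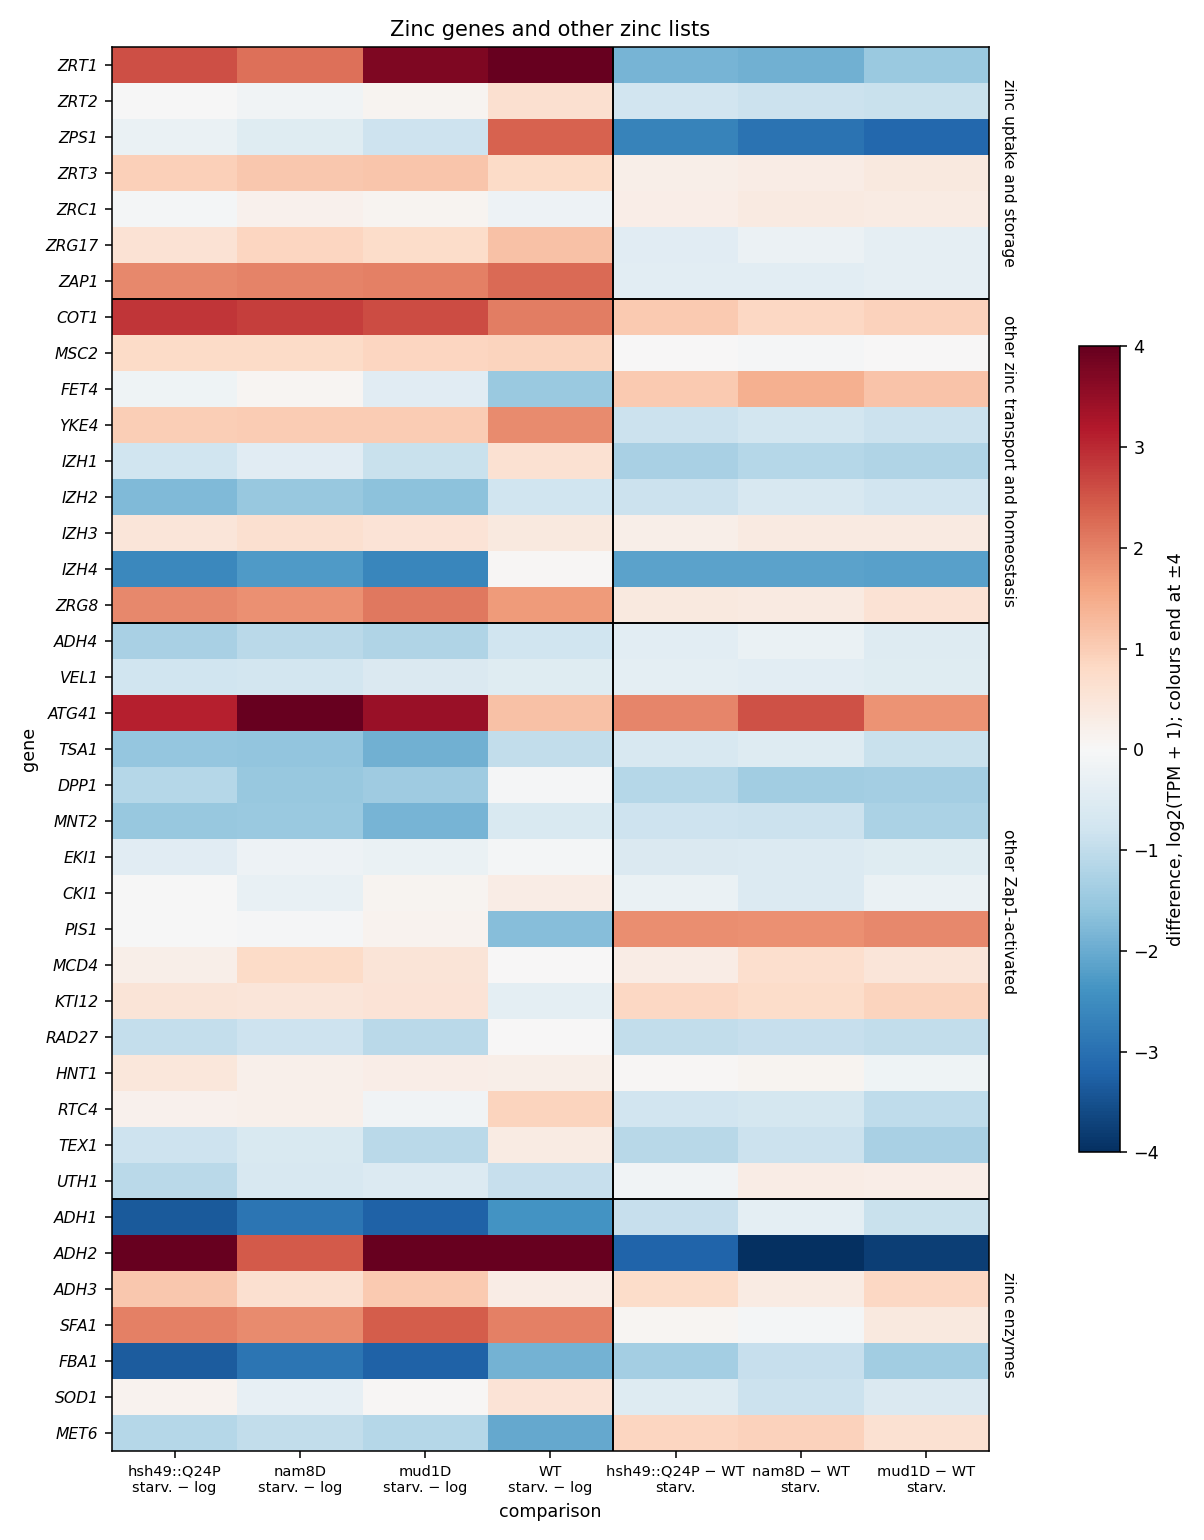
Heat map of differences on the log2(TPM + 1) scale for the 7 zinc genes and the other zinc lists, with rows for genes and columns for the 4 starvation responses and the 3 mutants against WT in starvation; colours end at ±4. PIS1 and ATG41 are above 0 and ZRT1, ZPS1 and IZH4 below 0 in the columns of the mutants against WT.

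Genes with a pattern like each member were sought among 2837 genes with a symbol, at least 10 TPM on average and group means that ranged over at least 1 on the log2 scale. Likeness was Pearson's r over the 8 group means of log2(TPM + 1), points that share libraries within a group. For ZRT1, ZRT3, ZRG17 and ZAP1 these points mostly separate starvation from log phase. For ZPS1 and ZRT2 they mostly set starved WT apart from the other groups, and for ZRC1 starved WT is the lowest. Likeness to those members therefore rests largely on starved WT. The closest to ZRT1 was INO1, which encodes inositol-3-phosphate synthase (r = 0.995), followed by YIA6 (0.987) and MSA1 (0.984). INO1 averaged 488 TPM in starved hsh49::Q24P, 443 TPM in nam8D, 613 TPM in mud1D and 1701 TPM in WT. In log phase it averaged 100.04 TPM in hsh49::Q24P, 83.0 TPM in nam8D, 40.7 TPM in mud1D and 128 TPM in WT. Starved WT was the highest and log phase mud1D the lowest, as with ZRT1. INO1 was picked for its likeness to ZRT1 over these same groups, so the shared order follows from the search. The log phase mud1D values of ZRT1 are also among those that chose it.

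For the other members the closest 3 were RTR1 (0.994), PBY1 (0.984) and ADP1 (0.984) for ZPS1, and ABF1 (0.939), OCH1 (0.935) and PEX32 (0.932) for ZRT2. ULS1, LCB4 and MTQ2 (0.999 each) were closest to ZRT3, and RPS9A (0.940), COM2 (0.909) and TOH1 (0.900) to ZRC1. ZRG17 was closest to MTC4 (0.995), UPF3 (0.995) and LAM5 (0.994), and ZAP1 to RPN4 (0.999), HSP33 (0.998) and RAD28 (0.998). Over the 24 single libraries 6 of these 21 names were found again, INO1 among them. Among the members, ZAP1 and ZRG17 had r = 0.98, ZRT1 had 0.96 with each of them, and ZPS1 had 0.91 with ZRT2, 0.40 with ZRT1 and -0.89 with ZRC1. Many of the 2837 candidates were closer. In likeness to ZAP1, ZRG17 ranked 389 and ZRT1 817 against them. In likeness to ZRT1, ZAP1 and ZRG17 each ranked 140. In likeness to ZRG17, ZAP1 ranked 67 and ZRT1 297. In likeness to ZPS1, ZRT2 ranked 35, ZRT1 378 and ZRC1 2819, and in likeness to ZRT2, ZPS1 ranked 7.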

How the data were processed

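The values are TPM per gene as deposited by the authors, in 1 table of 24 libraries (4 genotypes, 2 growth states, 3 replicates that the labels call biological). Per the labels' protocols, libraries were stranded and made from polyadenylated RNA. Per the submitters' processing notes, FastQC 0.11.9, Trimmomatic 0.39 and STAR 2.7.9a were used. The table's name contains coco, the name of a tool that assigns reads shared by overlapping or multi-copy genes, but its settings, the gene annotation and the strand setting are not given in the sources used here. TPM keep no read counts, so no count model was used and depth is unknown. Nothing says that replicates came from separate cultures, so p-values measure the spread between these libraries.

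Of 8009 rows, 7121 were gene rows, and the 6449 with at least 1 TPM in at least 3 libraries were tested. limma 3.58.1 in R 4.3.3 (trended variance, 8 group means, 19 contrasts, 16 residual degrees of freedom) was fitted to log2(TPM + 1), which understates changes of low genes, with Benjamini-Hochberg adjustment. On simulated data for mud1D against WT in starvation over 6449 genes, 97 of 100 genes changed by 1.5 were called, and 100 of 100 changed by 2.5, with 9 unchanged genes called. The changed genes were drawn only from those averaging above about 10 TPM on the log scale, so these call rates do not cover lower genes. Positions and promoters came from RefSeq R64, matched by gene ID. Sites were shown with 30 bases on each side, or 9 where that would end within 100 bases of the start codon.

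The 7 members and the lists were chosen with earlier results of these data known. Named were all members, up to 4 called genes per list in the WT response, up to 2 per list in each mutant against WT (mean of at least 5 TPM), and the 3 genes most like each member. MSC2, ADH3, DPP1, MNT2, further contrasts of COT1, FET4 and IZH1, and the promoter matches among list genes were named outside that rule after their values were seen. Alternatives were pseudocounts of 0.1 and 5, no filter, at least 10 TPM in 3 libraries, median centring, quantile normalization, spike-in scaling, no variance trend, a fit of the groups compared alone, each library left out, and the replicate number as a block. Numbers did not pair the samples. Each gene's group mean was subtracted, and the deviations of same-numbered libraries correlated over genes between -0.67 and 0.46. Only 1 of 16 comparisons of 2 groups had every pair over 0.1.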

Additional observations from a re-analysis of the deposited data

Results flagged for a closer look

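The starvation response of a mutant differed from that of WT by the interaction term in limma for 15 pairs of a gene and a mutant. Values are mutant response minus WT response on the log2(TPM + 1) scale, with 3 libraries in each of the 4 groups. For hsh49::Q24P they were ZPS1 at -2.65 (adjusted p = 8.68e-09), ZRT1 at -1.46 (adjusted p = 0.000985), ZRT2 at -0.65 (adjusted p = 0.00136) and ZRG17 at -0.57 (adjusted p = 6.03e-05). For nam8D they were ZPS1 at -2.86 (adjusted p = 2.77e-09), ZRT1 at -1.82 (adjusted p = 0.000129), ZRT2 at -0.77 (adjusted p = 0.000333), ZRG17 at -0.30 (adjusted p = 0.0133), ZRT3 at 0.31 (adjusted p = 0.00874) and ZRC1 at 0.36 (adjusted p = 0.000307). For mud1D they were ZPS1 at -3.20 (adjusted p = 5.84e-10), ZRT2 at -0.52 (adjusted p = 0.00647), ZRG17 at -0.42 (adjusted p = 0.00105), ZRT3 at 0.37 (adjusted p = 0.00232) and ZRC1 at 0.31 (adjusted p = 0.000966). Members called lower by this term were 2 of 7 in hsh49::Q24P (7.88% of tested genes), 2 of 7 in nam8D (8.76%) and 1 of the 6 tested in mud1D (9.57%). The 3 interactions share the WT libraries. For ZRT1 the WT log phase libraries also entered its choice, so its interaction tests are not independent of that choice.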

How the results depend on the processing

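The calls of ZRT1 and ZPS1 as lower in each starved mutant against WT held under all 16 alternatives, with differences between -2.36 and -1.40 for ZRT1 and between -3.31 and -2.29 for ZPS1. Scaling to the spike-ins moved the most. It changed the members called higher in the starvation response to 1 in hsh49::Q24P and 1 in nam8D. Those called lower became 3 for hsh49::Q24P, 2 for nam8D and 1 for mud1D. Of 6449 tested genes, that scaling called 524 higher and 2367 lower in hsh49::Q24P, 501 and 2153 in nam8D, and 677 and 2023 in mud1D. Interactions called lower became 5 for hsh49::Q24P, 5 for nam8D and 2 for mud1D. Over all tested genes those interactions became 2568, 2128 and 1822 in the same order (508, 565 and 617 in TPM). Reversed responses with that scaling were, in hsh49::Q24P, ZRT3 (-0.15) and ZRG17 (-0.49), in nam8D, ZRT3 (-0.0079), ZRC1 (-0.92) and ZRG17 (-0.19), and in mud1D, ZRT2 (-0.76), ZRC1 (-0.77) and ZRG17 (-0.11). Reversed against starved WT were ZRT3 (-0.20) and ZRC1 (-0.16) in hsh49::Q24P and ZRT3 (-0.13) and ZRC1 (-0.060) in nam8D, and reversed interactions were ZRC1 in hsh49::Q24P (-0.71), ZRT3 (-0.46) and ZRC1 (-0.42) in nam8D, and ZRT3 (-0.20) and ZRC1 (-0.27) in mud1D. Median centring and quantile normalization reversed the response of ZRC1 in nam8D (-0.26 and -0.23) and of ZRT2 (-0.23 and -0.31) and ZRC1 (-0.23 and -0.33) in mud1D. Both gave 1 member called lower in the mud1D response, where 1334 and 1284 of 6449 tested genes were called lower. In TPM that member count was 0 to 1 when 1 library was left out. The cause was not tested. Counts that rest on ZRT1 in log phase mud1D, the values that chose it, are listed only as a record of what the processing moved. They are no test of ZRT1, and nothing is read from them. The 1 member counted as lower in mud1D against WT in log phase became 0 with spike-in scaling, 0 when only the groups compared were fitted, and 0 to 1 when 1 library was left out (0 without mud1D replicate 1, WT replicate 2 or WT replicate 3). Members counted as higher in log phase ranged from 0 to 1 for hsh49::Q24P against mud1D and from 0 to 1 for nam8D against mud1D when 1 library was left out, and nam8D against mud1D gave 0 with a pseudocount of 5 and 0 with the replicate number as a block. The block changed no other count of calls of the members. Genes with a zinc-responsive element numbered 7 with up to 1 and 7 with up to 2 mismatches, against 2 exact. Of the values for single genes, 2131 stayed as reported, 74 moved, 23 reversed, 29 gained and 32 lost a pass. Without read counts, no limit from depth could be set.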
